A study of Homo sapiens with 22 samples.

Results

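The regions described here were stretches of chromatin with a RAD21 peak after 24 h of dTAGV-1 and none in the solvent control, and they are called gained regions below. RAD21 is the kleisin subunit of cohesin, and dTAGV-1 was used to degrade the tagged cohesin loader NIPBL. A 24 h peak was counted as gained when it overlapped, by 1 bp or more, no peak of the DMSO list of either clone. In clone A2, 2159 of 28589 peaks at 24 h were gained (7.55%), and in clone D7 1672 of 30114 (5.55%). Merging overlapping peaks of the 2 clones gave 3360 gained regions, 9.54% of the 35223 merged 24 h regions. The 12 lists of the series held 341123 peaks. Of the gained regions 471 were gained in both clones, 1688 in A2 alone and 1201 in D7 alone. The presence of peaks at 24 h and in DMSO chose these regions, so those values and the 24 h enrichments are given as a description.

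The cell line was hTERT RPE-1, human retinal pigment epithelium immortalised with telomerase, and cells were cycling without synchronisation. The 2 clones carry NIPBL fused to FKBP12(F36V), a domain through which dTAGV-1 directs a protein to degradation. In clone A2 the fusion is mCherry-P2A-FKBP12(F36V)-NIPBL, and in clone D7 it is mGreenLantern-P2A-FKBP12(F36V)-NIPBL. Each genotype was thus represented by 1 clone. For RAD21 each clone gave chromatin from 24 h of DMSO, 4 h of dTAGV-1 and 24 h of dTAGV-1, with about 10% mouse NIH/3T3 chromatin added as a spike-in. CTCF and WAPL came from wild-type cells, STAG1, STAG2 and PDS5A from clone D7, and an HA precipitation from clone A2. PDS5A came from cells in DMSO, and no label names a dTAGV-1 treatment for any of these 6 lists. There was 1 library per group, so differences are without replicates and intervals cover counting error only. The peak lists hold no measure of NIPBL protein, so the extent of its loss was not checked here.

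Cohesin is a ring-shaped complex that holds DNA loops and sister chromatids. NIPBL binds cohesin, stimulates its ATPase and drives the growth of loops, and CTCF bound to its motif stops the growing loop, so that cohesin peaks lie mostly at CTCF sites. STAG1 and STAG2 are alternative accessory subunits, PDS5A binds the ring and helps to arrest or release it, and WAPL opens the ring and takes it off DNA. CTCF-free cohesin peaks are known at active promoters and enhancers.

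Sequences from gained regions in both clones are shown first, with and without a wild-type CTCF peak, because CTCF overlap became more frequent with the strength of a gained region. RefSeq promoter windows of GRCh38.p14 were the sequence source, so only bases that lie both in a gained region and upstream of an annotated start, outside every protein-coding gene body, are printed. The 8 regions with the highest folds in both clones lie outside these windows. Capitals mark a match to the CTCF core motif with at most 1 mismatch or a match to the AP-1 motif TGANTCA, on either strand. BETALINC1 (chr20:21529946-21530095, + strand) and BBOX1 (chr11:27040565-27040668, + strand) had a CTCF peak, and KIAA0319 (chr6:24646192-24646341, - strand) and LOC100422781 (chr6:3231252-3231401, + strand) had none.
BETALINC1: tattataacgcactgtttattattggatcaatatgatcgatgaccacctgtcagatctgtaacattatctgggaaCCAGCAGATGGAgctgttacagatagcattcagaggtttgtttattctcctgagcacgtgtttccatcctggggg
BBOX1: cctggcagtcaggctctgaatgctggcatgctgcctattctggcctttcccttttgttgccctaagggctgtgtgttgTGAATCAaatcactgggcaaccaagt
KIAA0319: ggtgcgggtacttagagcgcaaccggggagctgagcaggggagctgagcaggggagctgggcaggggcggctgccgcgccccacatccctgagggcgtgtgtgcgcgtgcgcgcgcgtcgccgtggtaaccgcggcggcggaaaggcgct
LOC100422781: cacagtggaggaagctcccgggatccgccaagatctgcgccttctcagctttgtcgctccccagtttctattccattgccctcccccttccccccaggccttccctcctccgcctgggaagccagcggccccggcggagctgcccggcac

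The stretch upstream of the long non-coding RNA BETALINC1 held the RAD21 summit, 101 bp from the annotated start, and a match to the CTCF core with 1 mismatch. The fold enrichment there, the ratio of the summit pileup to its local background as the authors deposited it, was 6.80 in the A2 24 h list and 5.39 in the D7 24 h list, and the CTCF peak had a fold of 11.7. At BBOX1, which encodes an enzyme of carnitine synthesis, the folds were 5.39 in A2 and 4.20 in D7 with a CTCF fold of 7.52. The printed BBOX1 stretch held an AP-1 match and no CTCF core match, and the summit lay farther out, 693 bp from the start. The KIAA0319 stretch held its summit 13 bp from the start, with folds of 2.74 in A2 and 3.26 in D7. LOC100422781, a long non-coding RNA, had folds of 2.87 in A2 and 4.30 in D7. Neither of the CTCF-free stretches held a match to either motif.

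Gained regions were weak and narrow among the peaks of their own lists. In A2 the median fold of gained peaks was 4.97 (lowest 2.04, highest 17.0), against 11.9 for the 26430 kept peaks, which are the 24 h peaks that overlapped a DMSO peak of either clone. In D7 the medians were 4.67 for gained peaks (lowest 2.49, highest 24.4) and 12.4 for the 28442 kept peaks. The lowest 25% of the A2 list by fold held 69.2% of its gained peaks, and that of the D7 list 83.2%. In the highest 25% there were 0 gained peaks in A2 and 1 in D7. Gained peaks had a median width of 420 bp in A2 and 390 bp in D7, and kept peaks 685 and 656 bp. The DMSO peaks with no 24 h counterpart in either clone, called lost below, had median folds of 5.57 in A2 (9568 peaks) and 4.58 in D7 (9119 peaks) within their DMSO lists. Each clone thus had more lost than gained peaks.

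The summits of gained peaks rested on a median pileup of 23.0 fragments in A2 and 21.0 in D7, solved from the fold and the −log10 p, against 61.0 and 51.0 for kept peaks. These cover all gained peaks but 21387 of the A2 and 24584 of the D7 kept peaks, since the strongest kept peaks could not be solved, which lowers the kept medians. Library depth, taken as the lowest background pileup, was 1.87 in the A2 DMSO list and 2.83 in the A2 24 h list, and 3.00 and 3.07 in the D7 lists. Scaled to the depth of the DMSO list of their own clone, 94.6% of gained A2 peaks and 100% of gained D7 peaks still reached the lowest −log10 p of that list. Scaled to the A2 DMSO depth, 90.7% of gained D7 peaks did so. The number of merged gained regions was 3106 when every list was scaled to the lowest background and 3201 at 1 kb or more from a DMSO peak. With a −log10 q of at least 10, 1293 merged regions were left, 214 of them in both clones. With the DMSO list of the same clone only there were 6674, of which 7.15% were gained in both. With each DMSO list cut to the length of the 24 h list of its clone there were 6208, with 1206 in both.

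The 471 regions gained in both clones made up 21.8% of the gained peaks of A2 and 28.2% of those of D7. Most gained peaks of each clone were thus not gained in the other. Over all 24 h peaks the clones shared more: 28589 A2 and 30114 D7 peaks merged into 35223 regions, against 3360 from 2159 and 1672 gained peaks. The part of fold in this was not tested. Their summits in the 2 clones were a median of 36.0 bp apart, and 81.5% lay within 100 bp of each other. In the A2 list their median fold was 5.58, against 4.90 for regions gained in A2 alone, and in the D7 list 5.57 against 4.39 for regions gained in D7 alone. Across these 471 regions the log2 folds of the 2 clones had a Pearson r of 0.404 and a Spearman rho of 0.377. These points share their 2 libraries and are not replicates, so no p is given.

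**Figure D1:**
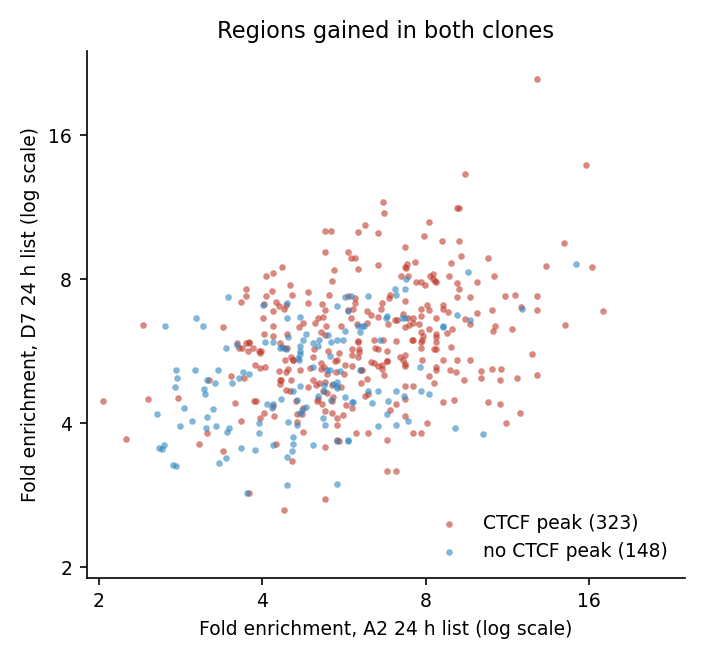
Fold enrichment of the 471 regions gained in both clones, in the A2 24 h list (horizontal, log scale) against the D7 24 h list (vertical, log scale), 1 point per region, coloured by overlap with a wild-type CTCF peak (323 with, 148 without). The points form a broad cloud (Pearson r of log2 folds 0.404).

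The highest region gained in both clones, ranked by the lower of its 2 folds, lay inside DLGAP1, a postsynaptic scaffold gene (chr18:3635241-3635962). It had no peak in either DMSO list or in the A2 4 h list, a fold of 6.53 in the D7 4 h list, and folds of 15.8 and 13.8 in the A2 and D7 24 h lists. The CTCF peak there had a fold of 4.60. The region inside CHST6, a sulfotransferase gene of corneal keratan sulfate (chr16:75491691-75492274), had folds of 12.8 in A2 and 20.9 in D7 at 24 h, 6.65 in the D7 4 h list and no peak in the A2 4 h list. It overlapped a CTCF peak of fold 10.4 and a PDS5A peak of fold 11.0. The region inside PDE4B, which encodes a cyclic AMP phosphodiesterase (chr1:66282155-66282864), had a peak in both 4 h lists, with folds of 5.19 in A2 and 6.73 in D7, and folds of 14.4 and 9.53 at 24 h. All 3 of these regions had a D7 4 h peak and a CTCF peak, and 1 of them also an A2 4 h peak.

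Of the next 5, the region inside GCGR, the glucagon receptor gene (chr17:81808644-81809388), had 24 h folds of 9.45 in A2 and 13.3 in D7 and a D7 4 h fold of 5.73. The region inside CLEC16A (chr16:10981612-10982127) had 24 h folds of 9.23 and 11.2, no 4 h peak, a CTCF fold of 22.8 and a PDS5A fold of 9.55. The region 78350 bp from MACROH2A1, a histone variant gene (chr5:135255714-135256310), had folds of 9.22 and 9.59 at 24 h and 5.10 and 5.47 at 4 h in A2 and D7. The region 105965 bp from SARAF, a regulator of store-operated calcium entry (chr8:29956800-29957786), had 24 h folds of 9.15 and 11.3 and no 4 h peak. At LAMA3, which encodes a laminin chain of epithelial basement membranes (chr18:23921691-23922261), the fold in D7 was 9.21 at 4 h and 8.95 at 24 h, and in A2 3.95 at 4 h and 9.31 at 24 h. Every one of the 8 highest regions overlapped a CTCF peak, with CTCF folds from 4.05 (MACROH2A1) to 22.8 (CLEC16A), and none overlapped a STAG1, STAG2, WAPL or HA peak.

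Regions gained in 1 clone alone included some of the highest folds. In A2 alone, a region inside RNF150 (chr4:141109954-141110588) had folds of 8.92 at 4 h and 16.5 at 24 h in A2 and no peak in any D7 list. A region 422575 bp from HS3ST1, a heparan sulfate sulfotransferase gene (chr4:11856620-11857114), had folds of 6.77 at 4 h and 16.2 at 24 h in A2. A region inside NCKAP5 (chr2:133096961-133097587) had an A2 24 h fold of 14.6 and no 4 h peak. In D7 alone, the highest was inside NCAM2, a neural cell adhesion gene (chr21:21232175-21232908), with a D7 24 h fold of 24.4, a CTCF fold of 19.1 and a STAG2 fold of 21.0. A region 443412 bp from SLC8A1, a sodium-calcium exchanger gene (chr2:40955440-40956177), had a D7 24 h fold of 19.1, an A2 4 h fold of 5.52 and no peak in the other lists. The third, 405070 bp from HS3ST5 (chr6:114747823-114748382), had a D7 24 h fold of 16.2, a CTCF fold of 31.9 and a STAG2 fold of 8.21. These 6 regions were present in the 24 h list of 1 clone and absent from that of the other at folds above the median of the kept peaks.

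The 4 h lists were not used to choose the regions. Of the 3360 regions, 2035 (60.6%) overlapped no 4 h peak, 999 (29.7%) a D7 4 h peak alone, 233 (6.93%) an A2 4 h peak alone and 93 (2.77%) a peak of both. Regions gained in both clones overlapped a 4 h peak more often (293 of 471, 62.2%) than regions gained in 1 clone (35.7%), a difference of 26.5 points (95% Newcombe interval 21.7 to 31.1). They also had the higher folds given above. Among gained peaks the 4 h share was 31.8% in A2 and 47.3% in D7 at folds of 4 to 5. At folds over 10 it was 73.3% and 81.0%. The part of fold in the difference was not tested. The share of all gained regions with a 4 h peak was thus 39.4%, and it depended on the call rule. It was 50.6% with a −log10 q of at least 10, 61.2% with the DMSO list of the same clone only, 53.5% with DMSO lists cut to the length of the 24 h list and 53.3% when gained was defined by summits more than 200 bp apart. Among A2 gained peaks 10.7% overlapped an A2 4 h peak, against 80.3% of kept peaks, and among D7 gained peaks 42.2% overlapped a D7 4 h peak, against 87.6%. Gained peaks were chosen for lacking a called RAD21 peak in DMSO and kept peaks for having one. The lists give no DMSO signal where no peak was called. The gap between them in RAD21 calls at 4 h follows largely from that choice and is given as a description. In the 4 h list of their own clone, lost peaks had shares near those of gained peaks, at 10.6% in A2 (gained minus lost 0.0866 points, −1.30 to 1.58) and 45.8% in D7 (−3.66 points, −6.22 to −1.07). In the D7 4 h list the shares were 29.5% of gained and 39.0% of lost A2 peaks (−9.58 points, −11.7 to −7.39). In the A2 4 h list they were 11.4% of gained and 5.43% of lost D7 peaks (5.94 points, 4.42 to 7.61). The A2 4 h list held 25763 peaks at a lowest background pileup of 3.16, and the D7 4 h list 39059 peaks at 4.05. The part that this difference in list length has in the D7-heavy pattern was not tested. Regions gained in A2 alone also overlapped D7 4 h peaks (22.9%) more often than A2 4 h peaks (8.06%).

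**Figure D2:**
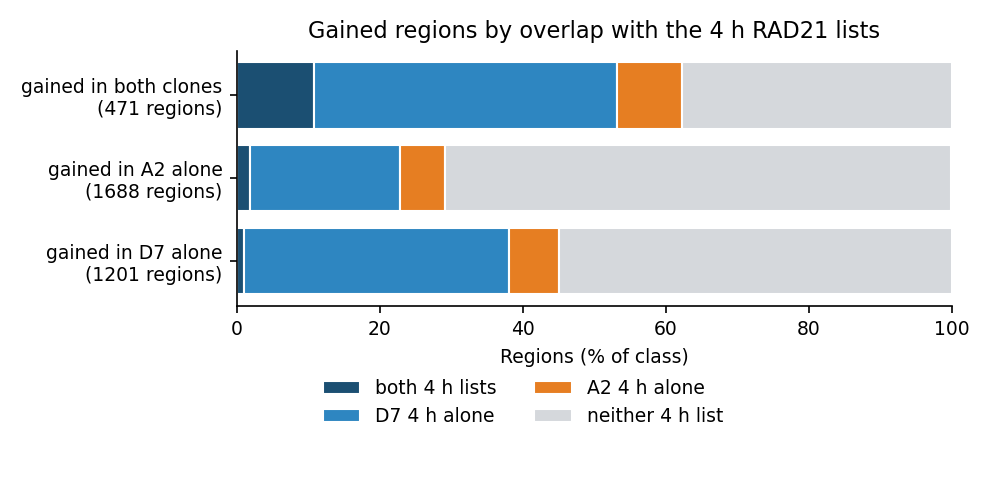
Share of gained regions (horizontal, % of each class) by overlap with the 4 h RAD21 lists, for regions gained in both clones, in A2 alone and in D7 alone; each bar sums to all regions of its class. No 4 h peak was present for 37.8% of regions gained in both clones, 70.9% of those in A2 alone and 55.0% of those in D7 alone.

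CTCF overlapped fewer gained than kept peaks in both clones. In A2, 51.5% of gained peaks overlapped a wild-type CTCF peak against 93.9% of kept peaks (difference −42.5 points, 95% Newcombe interval −44.6 to −40.4). In D7 the shares were 49.6% and 93.1% (−43.5 points, −45.9 to −41.1). Lost peaks lay between, at 61.8% in A2 and 54.4% in D7. Among merged regions, CTCF overlapped 323 of the 471 gained in both clones (68.6%, 95% Wilson interval 64.2 to 72.6), 46.7% of those in A2 alone and 42.2% of those in D7 alone. Regions gained in both clones thus overlapped CTCF more often than regions gained in 1 clone, by 23.7 points (19.0 to 28.1), and they also had the higher folds given above.

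The CTCF share was higher at higher RAD21 folds in both classes, apart from the lowest pair of bins of D7 gained peaks. Among A2 peaks with a fold under 3, it was 20.8% for gained and 52.0% for kept peaks, and with a fold over 10 it was 86.7% and 99.8%. In D7 it went from 27.3% to 90.5% for gained peaks and from 44.5% to 99.9% for kept peaks. Within the lowest 25% of each list by fold, 42.3% of gained and 76.0% of kept A2 peaks overlapped CTCF, and 43.9% and 70.7% of D7 peaks. The lower CTCF share of gained peaks was thus present at matched fold, at a smaller size than over the whole lists. Gained and kept peaks were split by RAD21 peaks in DMSO, and cohesin peaks lie mostly at CTCF sites. Matching on the 24 h fold does not remove that split. Its part in the CTCF gap was not tested, and the gap is given as a description.

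**Figure D3:**
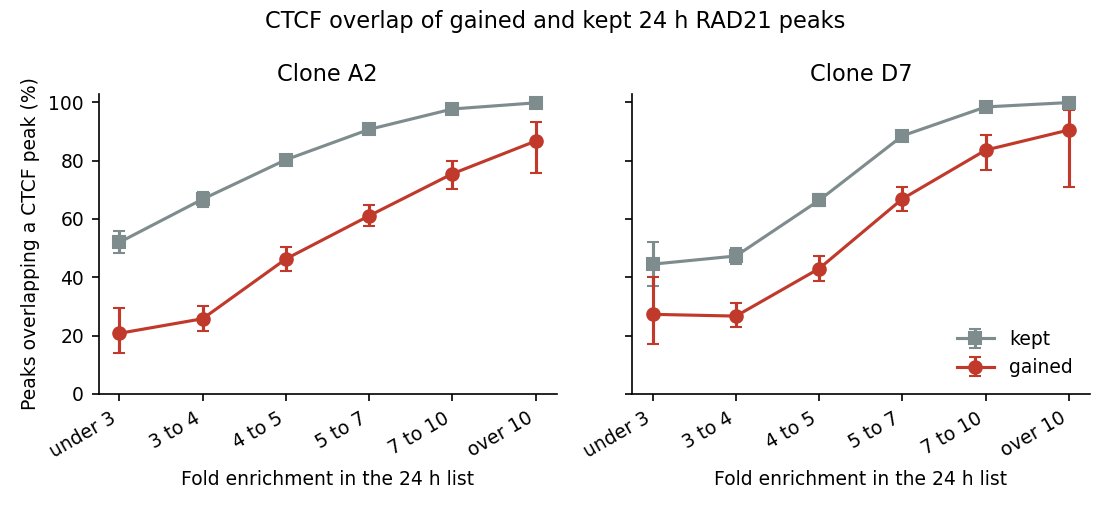
Share of 24 h RAD21 peaks overlapping a wild-type CTCF peak (vertical, %) by bin of their fold enrichment (horizontal), for gained and kept peaks of clone A2 (left) and clone D7 (right); bars are 95% Wilson intervals. Gained peaks lie below kept peaks in every bin of both clones.

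The CTCF sites at gained regions were mostly weak ones. The 1599 CTCF peaks that overlapped a gained region and no DMSO RAD21 peak had a median CTCF fold of 6.96 (quartiles 4.89 and 11.5). The 20880 CTCF peaks with neither a DMSO RAD21 peak nor a gained region had a median of 5.67, and the 36659 with a DMSO RAD21 peak one of 36.6. Of all 22479 CTCF peaks without a DMSO RAD21 peak, 7.11% overlapped a gained region. This share was 4.15% (95% Wilson interval 3.62 to 4.76) in the lowest CTCF decile and 9.17% (8.26 to 10.2) in the fourth. From the fourth to the seventh decile it lay between 9.05% and 9.89%, and it was 12.5% (9.00 to 17.1) in the eighth, 10.1% (5.86 to 16.8) in the ninth and 6.33% (2.73 to 14.0) in the tenth, with intervals that overlap. When only the upper 50% of the CTCF list was used, 7.53% of gained regions overlapped it. Where a gained region did overlap CTCF, the 2 summits were a median of 30.0 bp apart.

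Gained regions without CTCF numbered 1741 and lay a median of 18273 bp from the nearest CTCF summit. The highest of those gained in both clones lay 291823 bp from SYT1, the synaptotagmin gene (chr12:78571892-78572501), with a D7 4 h fold of 5.91 and 24 h folds of 15.2 in A2 and 8.58 in D7. The next, 69991 bp from F3, the tissue factor gene (chr1:94611470-94612097), had folds of 4.46 at 4 h and 9.58 at 24 h in A2, and 4.72 and 8.27 in D7. The other 2 lay on chromosome 8, 21565 bp from PLEKHF2 (24 h folds 7.35 and 8.02) and 226289 bp from ZFHX4 (7.32 and 7.64), and both had a D7 4 h peak (4.84 and 5.20). All 4 had a D7 4 h peak, and none overlapped a peak of STAG1, STAG2, PDS5A, WAPL or HA.

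The other cohesin proteins were seldom found at gained regions. PDS5A came from D7 cells in DMSO, and STAG1 and STAG2 from D7 cells with no treatment named. Gained peaks were chosen for lacking a called RAD21 peak in DMSO and kept peaks for having one. The gap between them for these cohesin proteins thus follows largely from that choice and is given as a description. STAG1 overlapped 167 of the 3360 regions (4.97%), STAG2 212 (6.31%) and PDS5A 167 (4.97%). Of the A2 gained peaks 4.31%, 6.39% and 3.61% overlapped STAG1, STAG2 and PDS5A, against 77.2%, 63.7% and 61.8% of kept peaks. Of the A2 lost peaks these proteins overlapped 30.9%, 12.2% and 30.3%. In D7 the gained shares were 6.10%, 6.28% and 7.06%, and the kept shares 74.0%, 64.3% and 59.5%. No gained peak overlapped a WAPL peak, and 0 of 2159 peaks allow a share of up to 0.139% in A2 and 0 of 1672 one of up to 0.179% in D7. The WAPL list was short, at 2667 peaks, and 9.83% of A2 kept peaks overlapped one.

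STAG2 and PDS5A divided differently by CTCF. STAG2 overlapped 8.39% of CTCF-free gained regions and 4.08% of those with CTCF, a difference of −4.31 points (95% Newcombe interval −5.95 to −2.69) for CTCF minus CTCF-free. PDS5A overlapped 2.76% of CTCF-free regions and 7.35% of those with CTCF (4.59 points, 3.13 to 6.12). Both directions were the same in each clone taken alone, at −6.49 and 4.61 points in A2 and −2.65 and 5.14 points in D7. The HA list of clone A2, which held 230 peaks, overlapped 1 gained region. It lay 9882 bp from ADAM12, a membrane metalloprotease gene (chr10:126397923-126398626), and had RAD21 folds of 2.47 at 4 h and 5.68 at 24 h in A2, and 4.18 and 4.54 in D7. STAG1, at a fold of 3.64, and STAG2, at 3.86, were also called there, without CTCF.

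**Figure D4:**
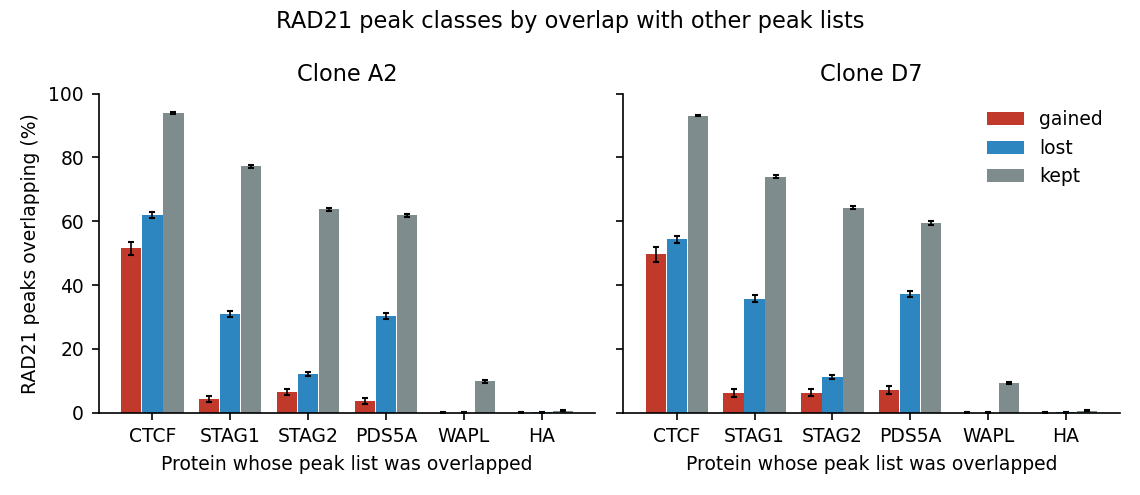
Share of RAD21 peaks (vertical, %) overlapping a peak of each other list (horizontal), for gained, lost and kept peaks of clone A2 (left) and clone D7 (right); bars on top are 95% Wilson intervals. Gained peaks have the lowest STAG1, STAG2 and PDS5A shares of the 3 classes in both clones (A2: 4.31%, 6.39% and 3.61%).

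Of the 3360 regions 1032 (30.7%) overlapped no peak of any list other than the 24 h RAD21 lists, including 52 of the 471 gained in both clones (11.0%). The highest of those 52 lay inside CCDC85A (chr2:56299050-56299649), with 24 h folds of 9.15 in A2 and 6.72 in D7. A second lay 376130 bp from LRATD2 (chr8:126934306-126934875), with folds of 7.32 and 6.64, and the third 191740 bp from SYT1 (chr12:78671993-78672504), with 9.67 and 6.58. The SYT1 neighbourhood thus held 2 of the CTCF-free regions singled out by fold.

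Summits at gene starts were rarer among gained than kept peaks in A2, and the regions gained in each clone alone differed in this. The summit lay within 1 kb of a protein-coding gene start in 2.15% of regions gained in A2 alone and 11.6% of those gained in D7 alone, a difference of −9.45 points (95% Newcombe interval −11.5 to −7.53). Regions gained in both clones stood at 2.25%. Against kept peaks, the gained share was 2.22% and 8.42% in A2 (−6.20 points, −6.86 to −5.39). In D7 it was 9.05% and 10.6% (−1.53 points, −2.90 to 0.0177), an interval that holds 0. At matched fold the D7 gained share was also below the kept share, at 14.5% against 38.8% for folds of 3 to 4 (−24.3 points, −28.5 to −19.7) and 3.56% against 15.0% for folds of 5 to 7 (−11.5 points, −13.2 to −9.14). The D7 difference turned positive, to 8.59 points, with DMSO lists cut to the length of the 24 h list, and to 12.8 points when gained was defined by summits more than 200 bp apart. That last definition also moved the A2 difference to 0.822 points (−0.229 to 1.98). Lost peaks had the highest shares, 20.8% in A2 and 25.4% in D7. Regions on chromosome 8 were left out of the gene-start values, since the table of starts used here held none on it.

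Among regions gained in both clones, 10 had their summit at a gene start. The highest by fold lay 919 bp from the start of CFAP210, a gene of the ciliary axoneme (chr2:169693269-169693703), with 24 h folds of 5.01 in A2 and 6.48 in D7, and was only 377 bp from a DMSO peak. The region 836 bp from the start of KIAA2012 (chr2:202072173-202072695) had 24 h folds of 8.30 and 4.85, a D7 4 h fold of 6.29 and a CTCF fold of 17.1. BBOX1, whose sequence is given above, was the third, with a D7 4 h fold of 5.34. The region 387 bp from the start of PI4K2B, a phosphatidylinositol 4-kinase gene (chr4:25234268-25234992), had folds of 4.03 and 4.19 at 24 h, 5.51 in the D7 4 h list and a STAG1 fold of 2.29. All 4 had a CTCF peak, and none had an A2 4 h peak.

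By gene body, 1493 summits (44.4%) lay inside a protein-coding gene, a share near that of kept peaks. It was 41.3% of gained and 45.0% of kept peaks in A2, and 47.2% of both in D7. Lost peaks stood at 58.6% in A2 and 59.0% in D7. Of 19970 protein-coding genes, 1221 held at least 1 gained region. NCKAP5, with 1003049 bp, and CAST, the calpastatin gene, with 813255 bp in the RefSeq table, held 9 each. In NCKAP5 2 of the 9 were gained in both clones and 4 had CTCF, and the gene as a whole had 12 A2 peaks in DMSO, 8 at 4 h and 18 at 24 h, against 9, 10 and 13 in D7. In CAST the totals were 22, 10 and 13 in A2 and 16, 12 and 19 in D7. CLSTN2, a calsyntenin gene, and ROR1, a receptor of the Wnt5a pathway, held 6 each, and HIVEP3, a zinc-finger gene, held 5, as did TMTC1, DOCK10 and GFOD1, which are shorter. ROR1 had no CTCF peak at its 6 gained regions, and CLSTN2 had one at 3 of its 6. Gene length was not accounted for in these counts, which were not compared with other genes.

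A gained region lay inside or within 10 kb of 1642 of 19970 protein-coding genes (8.22%). Among 25 genes of the YAP, TGF-beta and AP-1 pathways, 3 did so (12.0%): AMOTL2, an inhibitor of YAP, TGFBI, a secreted matrix protein, and WWTR1, which encodes the YAP paralog TAZ. The AMOTL2 region (chr3:134348466-134348988) was gained in both clones, with 24 h folds of 3.48 in A2 and 3.91 in D7. Of 22 p53 target genes 1 did so (4.55%): CDKN1A, the p21 cell cycle inhibitor, with a region 9242 bp away gained in both clones at folds of 2.46 and 4.50. Of 15 retinal pigment epithelium genes 3 did so (20.0%), namely TYR, the tyrosinase of melanin synthesis, PAX6, an eye transcription factor, and MERTK, a receptor for the uptake of outer segments. Each of the 3 was gained in 1 clone. Of 16 genes for cohesin and its regulators 1 did so (6.25%), RAD21 itself, 9839 bp from a region gained in both clones at folds of 5.75 and 7.38. None of 15 senescence-associated secreted factors had one. With 15 to 25 genes a list, these shares are 0 to 3 genes beside a background of 8.22%.

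Chromosomes differed in their gained share in A2 more than in D7. In A2 it ranged from 1.77% of 24 h peaks on chromosome 19 (95% Wilson interval 1.04 to 3.00) to 10.1% on chromosome 10 (8.63 to 11.7). In D7 it ranged from 4.28% on chromosome 14 (3.15 to 5.80) to 7.82% on chromosome 21 (5.27 to 11.5). Chromosome 19 held 1451 protein-coding genes and 736 A2 24 h peaks, the most genes per peak of any chromosome. The D7 share there was 4.45% (3.23 to 6.10), above the A2 interval. On 20 of the 23 chromosomes the A2 share was the higher one, as over the whole lists, and on chromosomes 17, 19 and 22 the D7 share was.

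**Figure D5:**
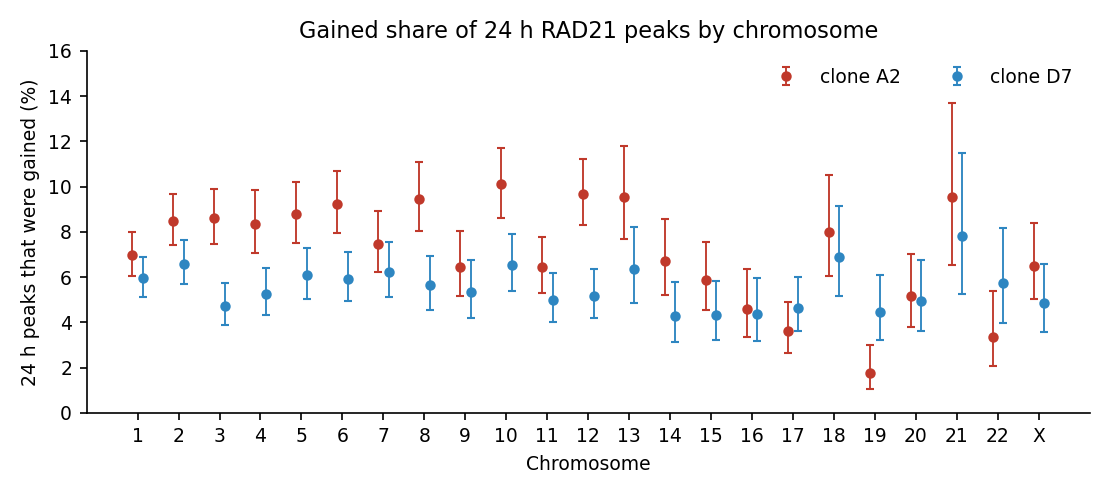
Share of 24 h RAD21 peaks that were gained (vertical, %) on each chromosome (horizontal), for clone A2 and clone D7; bars are 95% Wilson intervals. The A2 share is lowest on chromosome 19 (1.77%) and the D7 shares stay between 4.28% and 7.82%.

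Distances from gained regions to DMSO peaks and to each other are given as a description, without a comparison to other placements. The gap to the nearest DMSO peak had a median of 18722 bp (quartiles 7692 and 37444 bp), and 161 regions (4.79%) lay within 1000 bp of one. The nearest of all was 1 bp from a DMSO peak, inside the N-glycan synthesis gene MGAT1 (chr5:180799960-180800279), with a fold of 4.31 in the D7 4 h list and 2.77 in the D7 24 h list. Just outside the rule, an A2 24 h peak of fold 4.97 overlapped a DMSO peak by 28 bp (chr2:19158258-19158603), and a D7 24 h peak of fold 3.60 by 4 bp (chr9:20620511-20620829). Overlaps of at most 50 bp were few, 1 in A2 and 10 in D7. The distance from a gained region to the next had a median of 174422 bp. Another lay within 10000 bp for 6.13% and within 100000 bp for 37.5%.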

How the data were processed

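Of 22 samples, 12 immunoprecipitations had a peak list and the 10 inputs were not analysed on their own. The submitters' processing notes name hg38, mm10, BWA, Picard, SAMtools, bedtools, deepTools and MACS2, without roles. Peak names give a q of 0.001 for CTCF and 0.01 for RAD21, and each list names 1 library, so peaks were called per library. The authors deposited for each peak a score, a fold enrichment (a ratio of the summit pileup to the local background), a −log10 p, a −log10 q and the summit's offset, as the layout and values of the files show. Folds were compared by size only within a list. Folds of 1 region from several lists stand side by side as a description, since backgrounds differ. No spike-in scaling was applied, so changes in total RAD21 that do not alter calls are invisible here. Per the labels' protocols, the CTCF libraries used a different kit after size selection, and HA chromatin had an extra crosslinker.

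Overlaps (1 bp or more) were found with numpy 2.4.6 code, tested on simulated intervals and against bedtools. Shares have 95% Wilson intervals, differences 95% Newcombe intervals, and a count of 0 a limit of 3 counts. No p-value was computed, since each group held 1 library. Peaks of a list are not replicates. Depth is the lowest background pileup solved from the fold and the −log10 p under a Poisson model, solvable below a −log10 p of 250, where 100% of RAD21 pileups came out whole within a tolerance on the −log10 p of 0.02 at low values that widens with the value. Read totals were not used here. Genes, starts and promoter sequences are from RefSeq tables of GRCh38.p14, and coordinates count from 1.

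Regions were named by rank of fold (in both clones, by the lower of the 2 folds): the 8 highest gained in both clones, the 3 highest in each clone alone, the 4 highest in both without CTCF and the 4 highest in both at a gene start. Also named were the 3 highest in both found in no other list, the 5 genes with most regions, regions overlapping HA, and those nearest to the overlap threshold. The members, gene lists, bins and rules were chosen with earlier results of these data known.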

Additional observations from a re-analysis of the deposited data

How the results depend on the processing

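No paired analysis was possible because each group held 1 library and the results are overlaps of peak lists that come from no test. Values are given within each clone instead. The lower CTCF and 4 h shares of gained against kept peaks kept their direction, with intervals that left out 0, in both clones under every alternative run on them. Every alternative still split the classes by RAD21 peaks in DMSO. The 4 h gap follows largely from that choice, and the part of the choice in the CTCF gap was not tested. With a −log10 q of at least 10, gained peaks numbered 947 in A2 and 560 in D7 and merged regions 1293, with 214 (16.6%) in both clones. The shares were then 70.9% for CTCF, 50.6% for a 4 h list (39.4% in the main setting), 6.19% for PDS5A and 1.80% for a gene start. With the DMSO list of the same clone only, D7 had 4059 gained peaks and the merged set 6674 regions, 7.15% of them in both clones. The shares were then 65.7% for CTCF, 61.2% for a 4 h list, 24.5% for STAG2, 8.99% for STAG1, 0.225% for WAPL and 7.03% for PDS5A. With DMSO lists cut to the length of the 24 h list there were 3832 gained peaks in A2, 3585 in D7, 6208 merged regions and 1206 in both clones (19.4%). The shares were then 50.7% for CTCF, 53.5% for a 4 h list, 11.5% for STAG2, 15.1% for STAG1, 9.58% for PDS5A and 12.4% for a gene start. With summits more than 200 bp apart, D7 had 2533 gained peaks, and the shares were 52.2% for CTCF, 53.3% for a 4 h list, 13.7% for STAG2, 23.3% for STAG1, 17.2% for PDS5A, 0.437% for WAPL, 0.333% for HA and 15.0% for a gene start. Scaled to the lowest background pileup, the CTCF share was 50.5%. It was 7.53% with the upper 50% of the CTCF list and 45.1% with summits within 200 bp. A gene-start window of 2.5 kb gave 7.77%. The gained-minus-kept difference at gene starts was the one result that reversed. In D7 it was −4.96 points with a −log10 q of at least 10, −5.48 with the same clone's DMSO list, −2.38 at 1 kb or more from a DMSO peak, −2.07 scaled in depth and −2.12 with the 2.5 kb window, all with intervals below 0. It reversed to 8.59 points with the cut DMSO lists and to 12.8 with the summit rule, which also reversed it in A2, to 0.822. The cause was not tested. Of 125 values recomputed, 75 stayed within the main interval, within 1.5 times the main count or, for differences, on the same side of 0 with an interval that held or left out 0 as before. Of 42 differences 39 kept their direction.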

Other observations

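Promoter windows covered by gained regions differed in base composition between regions gained in A2 alone and in D7 alone. Windows are the 300 bases around an annotated RefSeq start, and 137 were covered by at least 150 bases. The 31 covered by regions gained in A2 alone had a median GC content of 48.3% (quartiles 44.2% and 53.2%) and a median of 4.00 CpG dinucleotides. The 99 covered by regions gained in D7 alone had a median GC content of 68.3% (57.7% and 74.0%) and 28.0 CpG. Windows of kept peaks stood at 66.7% GC in A2 and 68.0% in D7, and all 34961 windows at 58.7%. The 7 windows covered by regions gained in both clones had a median of 63.0%. The low GC content was thus found in the windows of regions gained in A2 alone and not in the kept windows of the same library. Each clone's value rests on 1 library, and windows of the same start region share bases. The windows came from 27 regions gained in A2 alone and 87 gained in D7 alone. The mix of coding and non-coding starts was not compared between these classes.

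Motifs searched on both strands numbered 7, and the AP-1 motif TGANTCA was chosen for mention after the values were seen. It was present in 19 of the 137 gained windows (13.9%, 95% Wilson interval 9.06 to 20.6), against 5.47% (4.74 to 6.31) of 3236 kept windows and 7.68% of all windows. Among the 95 gained windows without CTCF it was present in 15.8% (9.81 to 24.4). By clone it was in 16 of 99 windows of D7 alone and 2 of 31 of A2 alone. The motif GGAATG, bound by TEAD factors, was in 13.1% of gained windows (8.48 to 19.8) and 11.7% of kept ones. The shares in gained and kept windows were 8.76% and 12.4% for the ETS motif CCGGAAG, 33.6% and 27.8% for the NFY motif CCAAT, 8.03% and 7.69% for the E-box CACGTG and 10.9% and 8.65% for the RUNX motif TGTGGT. The CTCF core with at most 1 mismatch was in 6 of 42 gained windows with a CTCF peak (14.3%, 6.72 to 27.8), in 20.0% of kept windows with one (18.5 to 21.6) and in 4.94% of all windows. A match is a description of the letters in these windows.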
